A study of Mus musculus with 36 samples.

Results

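Liver RNA of 36 male adult mice, C57BL/6J by the labels and C57BL/6JOlaHsd by the methods, was measured on whole-mouse genome microarrays, and the members of the serpin A clade described here are Serpina7, Serpina3m, Serpina3k, Serpina3n, Serpina3g, Serpina1a, Serpina1b, Serpina6, Serpina10 and Serpina12. All mice ate a mild-high-fat diet with 30 energy % fat, were 10 weeks old at entry and were fasted for at least 2 h before they were killed. The baseline group (t=0, n = 12) was killed after the adaptation period, the control group (HF, n = 12) stayed on the same diet for 12 weeks, and the quercetin group (HF-Q, n = 12) received that diet with 0.33% (w/w) of the flavonol quercetin for 12 weeks. The 12 weeks of feeding are also 12 weeks of age, and these cannot be told apart. Every array held the Cy5-labelled RNA of 1 mouse against a Cy3-labelled pool of all samples, so that each level below is a log2 ratio of that mouse over the pool.

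The members were chosen by gene name, from genes whose difference between the baseline group and the groups fed for 12 weeks was already known: Serpina7 was picked as higher and Serpina3m as lower after 12 weeks. The values of all members against the baseline group are therefore a description, without a test. The comparison of the quercetin with the control group was not used in the choice and was tested. Of the 10 members, 9 have at least 1 probe, with 11 probes among the 41174 of the array, which name 18827 genes with a current symbol, and Serpina3k and Serpina10 have 2 each. Serpina1a was not named by a probe and has no value here. All 11 probes passed the filter on dim signals, which kept 18391 probes for the comparison of quercetin with control.

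Serpins are proteins that trap a protease by a conformational change after it cuts an exposed loop, and some members of the family have turned into hormone carriers. Hepatocytes make most of the clade A serpins found in plasma. Serpina7 is thyroxine-binding globulin, the carrier of thyroid hormone in blood, and Serpina6 is corticosteroid-binding globulin, the carrier of glucocorticoids. The Serpina1 genes encode alpha-1-antitrypsins, the inhibitors of neutrophil elastase. The Serpina3 genes encode a mouse group of antichymotrypsin relatives, in which Serpina3n is an acute phase protein and Serpina3g is known as an intracellular inhibitor of cathepsins. Serpina10 inhibits the coagulation factor Xa together with protein Z, and it also inhibits factor XIa. Serpina12 is vaspin, first known from adipose tissue.

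By the positions in the array files, which use mouse build mm8, 8 of the 9 measured genes lie together on chromosome 12, where their 10 probes fall between 104016120 and 104814817. Serpina7 lies elsewhere, with its probe at chrX:134427673-134428327, so the 9 genes are not a single cluster. The Serpina3 and the Serpina1 genes are families of related copies, and how alike the sequences under their probes are was not measured. The probe named Serpina1b (A_52_P324042) carries no RefSeq accession in the files, and signal from other Serpina1 genes cannot be told apart from its own. The probes of Serpina3m (A_51_P358012) and Serpina3k (A_52_P319093 and A_51_P240036) each carry 1 RefSeq accession. Signal from other Serpina3 genes still cannot be told apart from their own here, and their levels are uncertain in that sense. The series as a whole holds 9 slides of 4 arrays, every slide with all 3 groups, and 1 array, quercetin replicate 2, stood apart, with 96.7% of its spots well above background in Cy5 against 56.4% to 67.4% on the other arrays.

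RefSeq promoter windows of 300 bases (250 before and 50 after the start, build GRCm38.p6) matched 6 of the 10 members, with 7 windows. The letters of a hepatocyte nuclear factor 1 half-site, GTTAAT, searched on both strands, were in the windows of Serpina7, Serpina1a and Serpina1b and not in those of Serpina3n, Serpina3g and Serpina12. They were in 7.1% of all 32851 windows. The palindromic STAT letters TTCNNNGAA were found in the window of Serpina3g and not in those of the other 5 members, against 8.3% of all windows. A match is only a match of letters and was not tested as a site. The 110 bases before the start are given below for the gene with the largest difference after 12 weeks (Serpina7), for an abundant member with the same half-site (Serpina1b), for the member with the widest spread among baseline and control mice (Serpina3g), and for a member that was lower with quercetin (Serpina12). Capitals mark GTTAAT in the first and second sequence and TTCNNNGAA in the third, and the last holds neither.
Serpina7, chrX:139085237-139085346, minus strand: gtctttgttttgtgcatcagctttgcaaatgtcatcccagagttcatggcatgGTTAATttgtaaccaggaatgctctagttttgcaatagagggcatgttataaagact
Serpina1b, chr12:103738190-103738299, minus strand: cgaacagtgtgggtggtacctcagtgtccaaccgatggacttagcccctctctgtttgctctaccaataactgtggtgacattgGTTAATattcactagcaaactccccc
Serpina3g, chr12:104236037-104236146, plus strand: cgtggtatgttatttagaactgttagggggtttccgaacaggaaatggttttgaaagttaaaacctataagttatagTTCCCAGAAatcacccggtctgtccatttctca
Serpina12, chr12:104044444-104044553, minus strand: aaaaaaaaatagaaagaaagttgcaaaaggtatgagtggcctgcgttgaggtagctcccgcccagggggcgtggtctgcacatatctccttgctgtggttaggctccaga

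After 12 weeks on either diet, the level of the thyroid hormone carrier Serpina7 was higher in every mouse than in any baseline mouse. In the baseline group the log2 ratio ran from -1.48 over a median of -0.96 to -0.56. In the control group it ran from -0.10 over 0.23 to 0.51, and in the quercetin group from 0.01 over 0.27 to 0.80. The mean was -0.96 ± 0.31 (SD, n = 12) at baseline, 0.18 ± 0.19 (SD, n = 12) in the control group and 0.37 ± 0.28 (SD, n = 12) in the quercetin group. The ranges of baseline and of either later group did not overlap. The difference from baseline was 1.14 on the log2 scale (standard error 0.10, or 2.21-fold) with the control diet and 1.34 (standard error 0.11, or 2.53-fold) with quercetin. By size it ranked 23 of 17797 probes in the former comparison and 6 of 18380 in the latter. The difference was positive on 9 of 9 slides in each comparison. Serpina7 was picked for being higher after 12 weeks, so its rank, its slides and its separate ranges are a description only. The share of all probes with separate ranges was not counted. In the authors' processed table, whose unit is the log2 of the normalised Cy5 signal, the mean of Serpina7 went from 9.54 at baseline to 10.7 in the control group and 10.9 in the quercetin group.

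**Figure D1:**
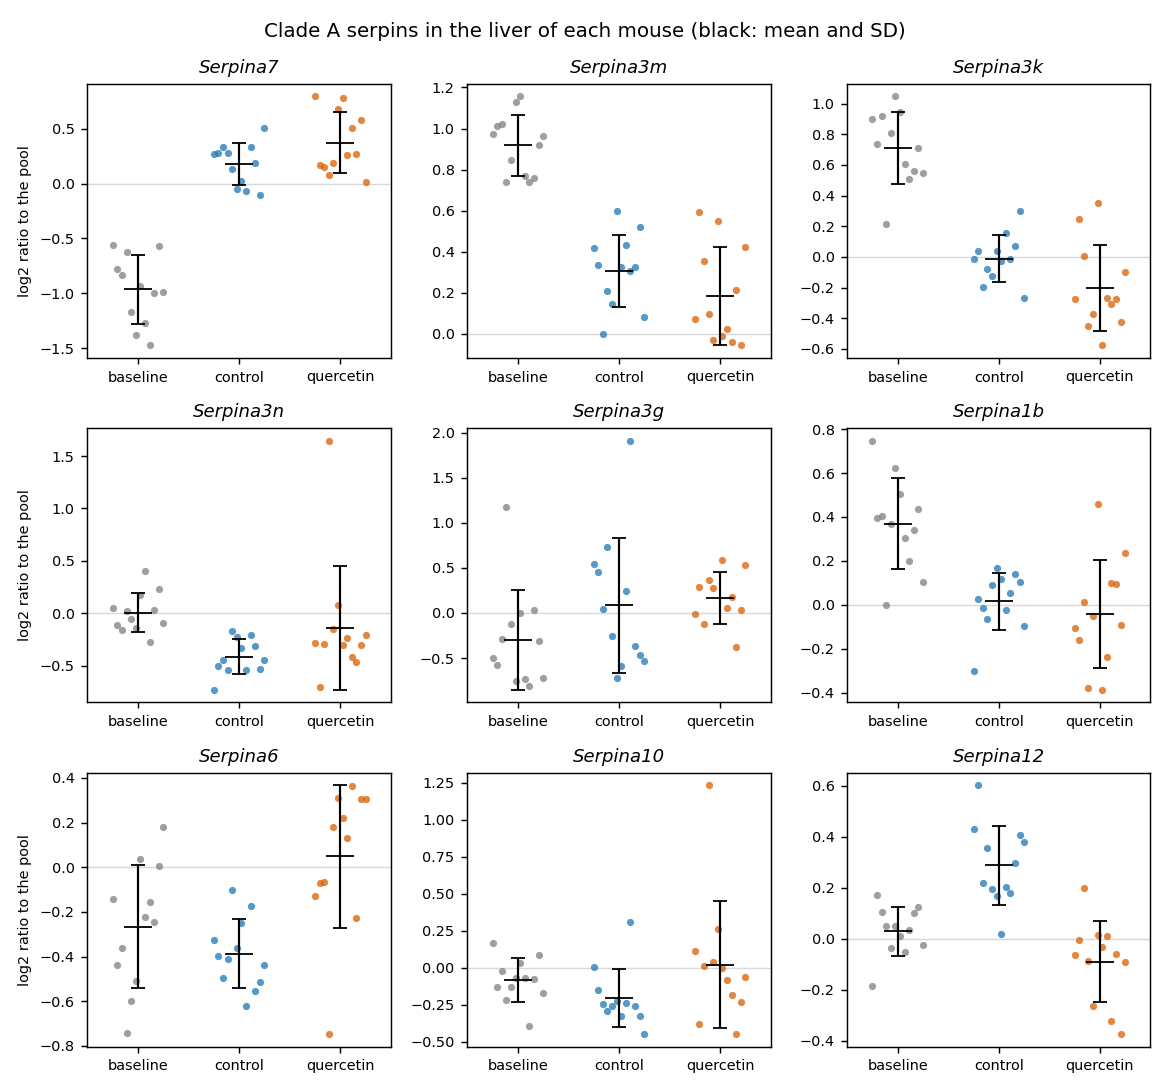
Level of each measured member in the liver of every mouse, as the log2 ratio over the common pool (vertical axes, each on its own scale), for 12 baseline, 12 control and 12 quercetin mice; points are mice and black bars the mean and SD. Serpina7 lies between -1.48 and -0.56 at baseline and between -0.10 and 0.80 in both later groups, Serpina3m lies between 0.74 and 1.16 at baseline and at 0.60 or less later, and 1 quercetin mouse stands at 1.65 for Serpina3n and 1.23 for Serpina10.

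The Serpina3 genes of high signal moved the other way. Serpina3m was between 0.74 and 1.16 in baseline mice with a median of 0.94. It was between 0.00 and 0.60 in control mice with a median of 0.33, and between -0.06 and 0.59 in quercetin mice with a median of 0.08. No later mouse reached the lowest baseline mouse, a description only, since Serpina3m was picked for being lower. On the log2 scale the difference from baseline was -0.61 (standard error 0.06) with the control diet and -0.74 (standard error 0.08) with quercetin, and -0.21 and -0.29 with the Cy5 channel alone. The Cy5 spot of Serpina3m was saturated on 4 of the 36 arrays, and without these the differences were -0.59 and -0.74.

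Serpina3k gave differences of the same sign with both probes. With the brighter probe the mean log2 ratio was 0.71 ± 0.23 (SD, n = 12) at baseline, -0.01 ± 0.15 (SD, n = 12) in the control group and -0.20 ± 0.28 (SD, n = 12) in the quercetin group. Its differences from baseline were -0.72 (standard error 0.08) and -0.91 (standard error 0.10), and those of the other probe -0.52 and -0.69. With the Cy5 channel alone the difference of quercetin from baseline was -0.53. A single baseline mouse at 0.22 overlapped the later groups, and the others were at 0.51 or more. For Serpina3m, Serpina3k and Serpina1b the signal came from the lower laser power on all 36 arrays in both Cy5 and Cy3. The ratio of such bright spots depends on how the scanner joined its scans. The effect of this on the values was not tested.

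Serpina1b, the alpha-1-antitrypsin probe, stood at a mean of 0.37 ± 0.21 (SD, n = 12) on the log2 scale at baseline, 0.02 ± 0.13 (SD, n = 12) in the control group and -0.04 ± 0.25 (SD, n = 12) in the quercetin group. It was lower than the baseline median in 12 of 12 control mice and 11 of 12 quercetin mice. The acute phase gene Serpina3n was at 0.01 ± 0.19 (SD, n = 12) at baseline and -0.41 ± 0.17 (SD, n = 12) in the control group, a difference of -0.42 (standard error 0.07). Against quercetin mice its difference was -0.14 (standard error 0.16), -0.30 without quercetin replicate 4, a mouse described further on, and 0.29 with scale normalization after loess.

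The other members gave the following values against baseline. Serpina6 differed from baseline by -0.12 (standard error 0.09) in control mice and by 0.31 (standard error 0.11) in quercetin mice. Serpina12 differed by 0.26 (standard error 0.05) and -0.12 (standard error 0.05). Serpina10 differed by -0.12 (standard error 0.07) and 0.10 (standard error 0.12) with the brighter probe, and by -0.17 and 0.01 with the other. Serpina3g differed by 0.38 (standard error 0.25) in control mice, by 0.22 without control replicate 9, and by 0.47 (standard error 0.17) in quercetin mice. In these values the control and the quercetin group share the baseline arrays.

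An adjusted p under 0.05 (limma, Benjamini-Hochberg adjustment over all probes tested) is named a call. By that mark 6 of 9 members were called between control and baseline, where 24.9% of all probes were called, and 4 of 9 between quercetin and baseline, where 17.0% were called. Since the members were chosen from this contrast, nothing is read from these counts. The median difference of the 9 members was -0.12 in both comparisons, and that of all probes was 0.01 with control and -0.00 with quercetin. Where arrays were only centred on their median, the median of all probes between control and baseline moved to 0.12, and the members' differences have to be read against it.

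**Figure D2:**
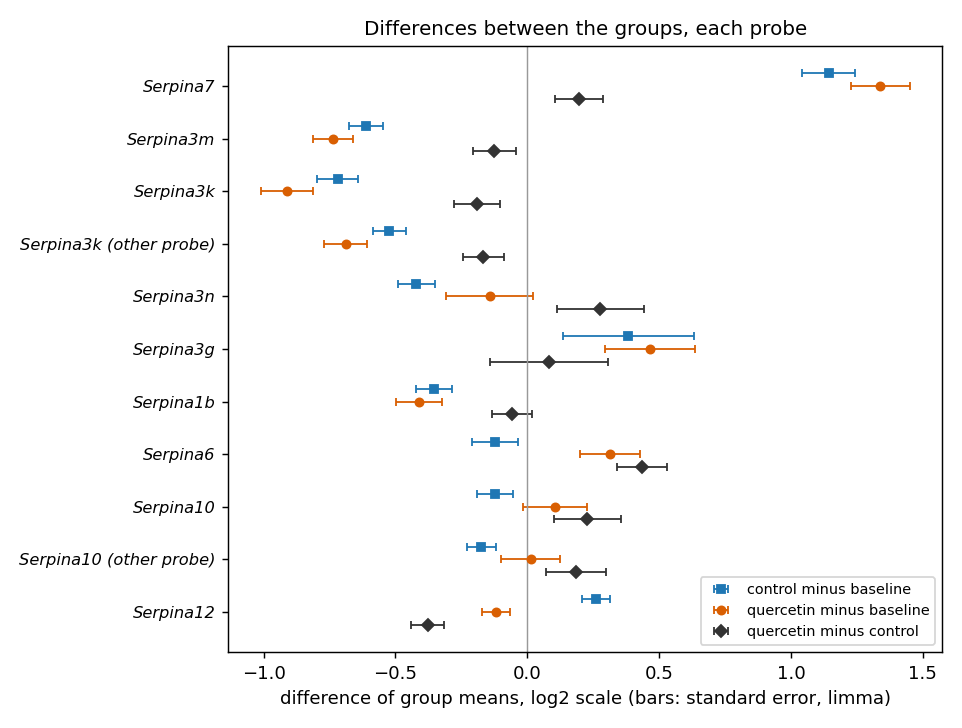
Difference of the group means on the log2 scale (horizontal axis) for each of the 11 probes, in the comparisons of control with baseline (blue squares), quercetin with baseline (orange circles) and quercetin with control (black diamonds); bars are the standard error from limma, and comparisons share arrays. Serpina7 lies at 1.14 and 1.34 against baseline and at 0.20 between the diets, whereas Serpina6 at 0.44 and Serpina12 at -0.38 are farthest from 0 between the diets.

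Between the diets, 2 of the 9 members differed, both of them members that were not among those with the largest differences from baseline. The glucocorticoid carrier Serpina6 was higher and vaspin, Serpina12, was lower in the quercetin group. The share of all probes called in this comparison was 3.40%.

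Serpina6 had log2 ratios from -0.62 over a median of -0.40 to -0.10 in control mice. In quercetin mice the values ran from -0.75 over 0.16 to 0.36. The groups overlapped, and 11 of 12 quercetin mice were above the control median. The exception was quercetin replicate 4. The mean of 0.05 ± 0.32 (SD, n = 12) with quercetin exceeded that of -0.39 ± 0.15 (SD, n = 12) in the control group by 0.44 on the log2 scale, or 1.35-fold (standard error 0.10, 95% interval 0.24 to 0.63, adjusted p = 0.0105, limma). The difference was positive on 9 of 9 slides, from 0.22 to 0.78. The authors' processed values gave a difference of 0.41 (adjusted p = 0.0407, limma). The Cy5 spot was read from the lower laser power on 12 of 12 arrays of both groups, and on 8 of 12 at baseline, whereas its Cy3 spot was read from the higher power on all arrays. The call was lost with median centring (0.40, adjusted p = 0.237, limma), with scale normalization after loess (0.22, adjusted p = 0.803, limma) and with the Cy5 channel alone (0.35, adjusted p = 0.127, limma).

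Serpina12 was measured from 0.02 over a median of 0.26 to 0.60 in control mice and from -0.38 over -0.06 to 0.20 in quercetin mice. All 12 quercetin mice were below the control median, and the ranges overlapped. The means were 0.29 ± 0.16 (SD, n = 12) and -0.09 ± 0.16 (SD, n = 12). The difference of -0.38, or 1.30-fold, had a standard error of 0.06 and a 95% interval from -0.51 to -0.25 (adjusted p = 0.00136, limma). It was negative on 9 of 9 slides, from -0.57 to -0.05. The probe is dim, with a median Cy5 signal of 5.63 times background in the control and 3.72 times in the quercetin group and a Cy3 signal near 2.4 times, and it is the member that did not pass a filter of 4 times background. The authors' processed values gave -0.52. Signals from Feature Extraction gave -0.80.

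The 7 other members were not called between the diets by limma. Serpina7 was higher by 0.20 with quercetin (standard error 0.09, 95% interval 0.01 to 0.39, adjusted p = 0.277, limma), with 7 of 12 quercetin mice above the control median, and its difference ranged from 0.11 with median centring to 0.55 with scale normalization. Serpina3m differed by -0.13 (95% interval -0.29 to 0.04, adjusted p = 0.465, limma). Serpina3k differed by -0.19 (95% interval -0.37 to -0.01, adjusted p = 0.258, limma) with the brighter probe and by -0.17 with the other. Over the alternatives Serpina3m ranged from -0.19 to -0.045 and Serpina3k from -0.65 with scale normalization to -0.033 with the Cy5 channel alone. These intervals contain small differences in the same direction as those from baseline, and a missed threshold does not show that the diets gave equal levels.

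Serpina1b differed by -0.06 between the diets (95% interval -0.22 to 0.10, adjusted p = 0.758, limma), by 0.050 with the Cy5 channel alone and by -0.45 with scale normalization after loess. Serpina3n differed by 0.28 (95% interval -0.06 to 0.62, adjusted p = 0.411, limma) and Serpina10 by 0.23 (95% interval -0.03 to 0.49, adjusted p = 0.381, limma). For both, 10 of 12 quercetin mice were above the control median. Without quercetin replicate 4 these differences were each 0.12, and scale normalization after loess raised them to 0.63 and 0.62. Serpina3g differed by 0.08 (95% interval -0.38 to 0.54, adjusted p = 0.897, limma), by 0.25 without control replicate 9 and by -0.012 with the position of the array on the slide as a block.

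Some of the spread came from single mice in which several members stood apart together. Quercetin replicate 4 had the highest level of all 36 mice in Serpina3n, at 1.65 where the next mouse was at 0.40, and in Serpina10, at 1.23 where the next was at 0.31. It had the lowest level of Serpina6, at -0.75. In the same liver the mean log2 ratio of 22 acute phase genes, none of them a member, was 0.99, against -0.24 to 0.48 in the other mice, and 16 of the 22 genes had their highest level there. Among them were the serum amyloid genes Saa1 at 1.97 and Saa2 at 2.06, haptoglobin (Hp) at 1.70 and serum amyloid P (Apcs) at 1.59. Baseline replicate 4 was second in that mean at 0.48 and second lowest of all mice in Serpina6 at -0.74. It had the lowest Serpina3k and Serpina1b levels of its group, at 0.22 and -0.00, whereas its Serpina3n level of 0.02 was close to the mean of its group. Without quercetin replicate 4, a choice made after the data were seen, Serpina6 differed between the diets by 0.51 (adjusted p = 0.000462, limma) and Serpina12 by -0.38. The part of an acute phase state in these levels was not tested.

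**Figure D3:**
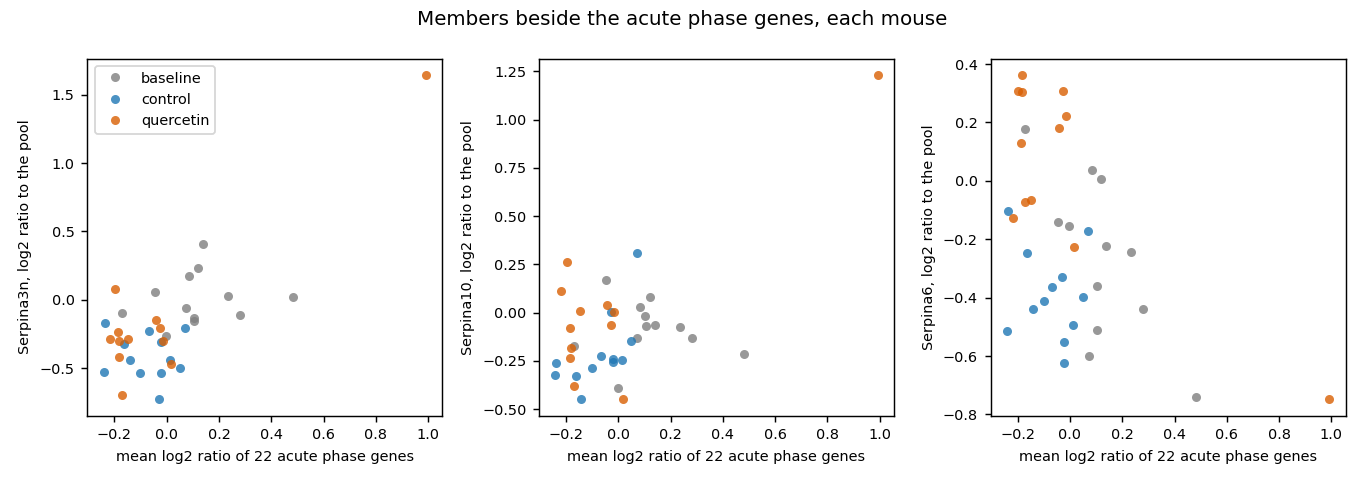
Level of Serpina3n, Serpina10 and Serpina6 (vertical axes, log2 ratio over the pool) against the mean log2 ratio of 22 acute phase genes in the same liver (horizontal axis), with 1 point for each of the 36 mice, coloured by group. The quercetin mouse at 0.99 on the horizontal axis is the highest in Serpina3n at 1.65 and in Serpina10 at 1.23, and the lowest in Serpina6 at -0.75.

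Serpina3g had the widest spread of the members at baseline (SD 0.55) and in control mice (SD 0.75), and an SD of 0.29 over the 11 quercetin mice with a value. Control replicate 9 was the highest of the 35 mice with a log2 ratio at 1.91, and baseline replicate 4 followed at 1.18. In control replicate 9 the related gene Serpina3f stood at 1.67, and the interferon-induced gene Gbp2 stood at 2.53, each the highest of the 36 mice. Both genes were chosen after their values were seen. Shared signal between the probes of Serpina3g and Serpina3f was not measured. The Serpina3g spot of quercetin replicate 6 was marked as an outlier by the scanner software and left out, so 11 quercetin mice remain. In the authors' table that mouse has 13.4, the highest of all mice, where control replicate 9 has 13.2 and the quercetin group has a mean of 11.6 and an SD of 0.63.

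How the members varied among mice of one group was taken from the deviations from the group means over 36 mice, with 36 pairs of members compared. Of these, 3 pairs passed a permutation test adjusted over all pairs. Serpina3m and Serpina3k varied together (Pearson r = 0.85, Spearman rho = 0.865, permutation p = 1e-05 for both, the smallest that 100000 permutations can give, adjusted p = 0.00036), and r was 0.795 without the 2 mice farthest from the median of Serpina3m. Within the groups r was 0.814 at baseline, 0.828 in control and 0.913 in quercetin mice. These genes are related copies, and shared signal between their probes was not measured here.

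Serpina3k and Serpina1b also varied together (r = 0.676, permutation p = 6e-05, adjusted p = 0.00108; rho = 0.617, permutation p = 0.00019, adjusted p = 0.00342), with r = 0.536 without the 2 mice farthest from the median. Within the control group r was 0.328. The spots of Serpina3m, Serpina3k and Serpina1b were all read from the lower laser power in Cy5 and Cy3 on every array. With a single array per mouse, a shared array effect on such bright spots cannot be told apart from variation between mice. The part of such an effect in the correlations of Serpina3k with Serpina3m and with Serpina1b was not tested. Serpina3n and Serpina10 had r = 0.83 (permutation p = 9e-05, adjusted p = 0.00108), whereas rho was 0.455 (permutation p = 0.00582, adjusted p = 0.0524) and r fell to 0.478 without the 2 farthest mice and to 0.505 without quercetin replicate 4. Much of that r rested on 1 mouse. The carriers Serpina7 and Serpina6 had r = 0.2 (permutation p = 0.295, adjusted p = 0.624), which did not pass.

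**Figure D4:**
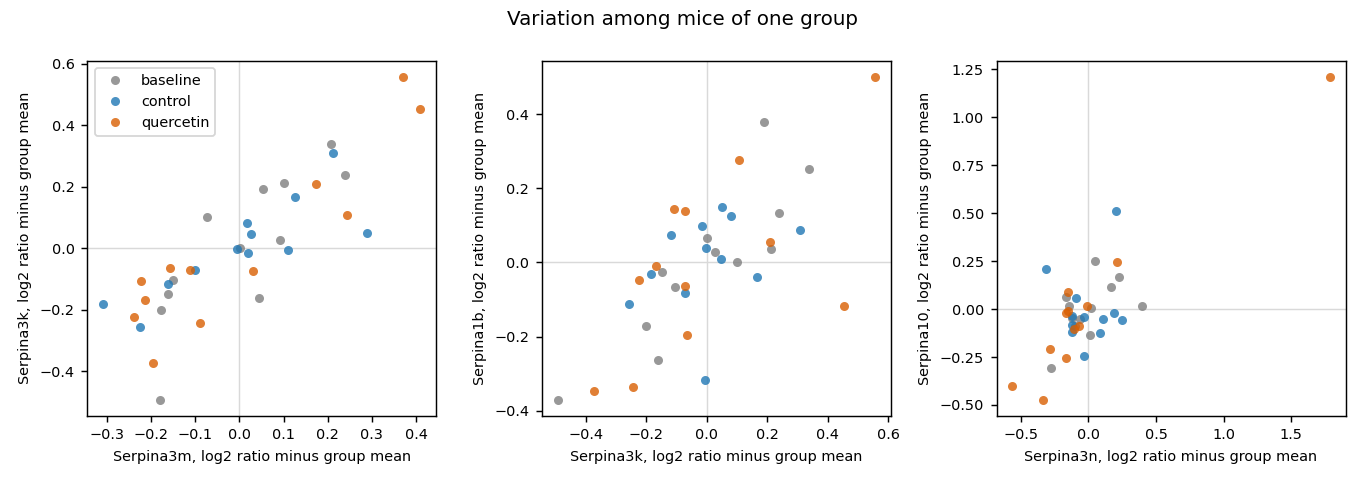
Deviation of each mouse from the mean of its group, on the log2 scale of the ratio over the pool, for the 3 pairs of members that passed the adjusted permutation test: Serpina3m and Serpina3k, Serpina3k and Serpina1b, and Serpina3n and Serpina10; points are 36 mice coloured by group. The first pair has r = 0.85 over all mice, and in the third a single quercetin mouse lies far from the rest.

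Of 10969 other genes, those whose deviations were most like Serpina7 over the 36 mice were Apobec1 (r = 0.652), G6pdx (r = 0.622), Grap (r = 0.604), Gpx7 (r = 0.593) and Arhgap15 (r = 0.59). Their own differences between control and baseline ran from -0.31 to 0.29, against 1.14 for Serpina7. The genes most like Serpina3m were Serpina3k (r = 0.85), Ttc19 (r = 0.656), Abcg2 (r = 0.656), Cyp2c29 (r = 0.632) and Ugt3a1 (r = 0.611). These are the highest of many values and a description only.

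Of the other clade A serpins, most of those expressed were lower after 12 weeks. Of 16 listed, 11 have a probe and 7 were expressed, and 6 of these 7 were called as lower in control than in baseline mice, where 12.3% of all probes were called as lower. The list was drawn up with earlier results of these data known. The 6 were Serpina4-ps1 (-1.38, adjusted p = 0.00919, limma), Serpina9 (-0.59), Serpina3c (-0.50, adjusted p = 4.94e-07, limma), Serpina1e (-0.30), Serpina11 (-0.28) and Serpina1d (-0.27). Serpina3f was measured at 0.26 and was not called. The median of the 7 was -0.30. The same 6 genes were called as lower in quercetin than in baseline mice, with a median over the 7 of -0.42, where 8.59% of all probes were called as lower. The probes of Serpina1d and Serpina1e are named in the files for several Serpina1 genes. Between the diets, Serpina1d was called as lower with quercetin (-0.22, standard error 0.06, adjusted p = 0.0308, limma) and the 6 others were not called.

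Serpins of other clades were called in both directions. Of 12 expressed, 2 were called as higher and 1 as lower in control than in baseline mice. Among all probes 24.9% were called there in either direction, a share near that of these serpins, and nothing is read from the count. The called genes were the collagen chaperone Serpinh1 at 0.55, Serpine2, protease nexin-1, at 0.27, and Serpinf2, the inhibitor of plasmin, at -0.18. Of 11 expressed in the comparison of quercetin with baseline, Serpinb1a at 0.53 and Serpinh1 at 0.43 were called as higher. Serpinf2 at -0.27 and heparin cofactor Serpind1 at -0.18 were called as lower. In that comparison 8.38% of all probes were called as higher and 8.59% as lower. None of the 12 expressed genes was called between the diets by limma (2 at an unadjusted p under 0.05).

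Among proteases and cofactors that the members act on, 7 of 12 listed genes were expressed. Coagulation factor XI (F11), a target of Serpina10, was lower than baseline by 0.71 in control mice (adjusted p = 4.37e-08, limma) and by 0.97 in quercetin mice (adjusted p = 8.38e-12, limma), and Proz, the protein Z cofactor of Serpina10, differed by -0.17 in control mice. Against baseline, the lysosomal proteases Ctsl at -0.32 and Ctsh at 0.16 were called in quercetin mice. None of the 7 was called between the diets by limma (4 at an unadjusted p under 0.05).

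Genes of thyroid hormone transport and response were listed beside Serpina7, and 14 of 15 were expressed. In control against baseline mice 3 were called as higher and 4 as lower, where 12.6% and 12.3% of all probes were. The deiodinase Dio1 fell by 0.86 (adjusted p = 4.94e-07, limma), Me1, malic enzyme, rose by 0.42, Klf9 differed by -0.28 and Gpd2 by 0.26. In quercetin against baseline mice 2 were higher and 2 lower, where 8.38% and 8.59% of all probes were. Among them were Dio1 at -0.72, the second plasma carrier transthyretin (Ttr) at -0.33, the receptor Thrb at 0.26 and the transporter Slc16a10 at 0.17. None of the 14 was called between the diets by limma (4 at an unadjusted p under 0.05).

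Glucocorticoid response genes were listed beside Serpina6, and 9 of 10 were expressed. Fkbp5, a glucocorticoid receptor target, had a mean log2 ratio of 0.33 in baseline, -0.70 in control and -0.07 in quercetin mice. It was higher with quercetin than in the control group by 0.64 (adjusted p = 0.0278, limma), which made it the 1 gene called between the diets, and it fell by 1.03 from baseline to control (adjusted p = 0.000277, limma), where Sgk1 at 0.18 was also called. None of the 9 was called between quercetin and baseline by limma, nor was any at an unadjusted p under 0.05. The shares of all probes called were 3.40% between the diets, 24.9% between control and baseline and 17.0% between quercetin and baseline.

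Of 18 hepatocyte transcription factors, 4 were called as higher with quercetin than in the control group, where 2.27% of all probes were. These were Dbp at 0.90, Tef at 0.65, Cebpb at 0.41 and Hlf at 0.34. Dbp, Tef and Hlf are proline and acidic amino acid-rich factors whose levels follow the time of day. Their part in the difference of Serpina6 and Serpina12 was not tested. Between control and baseline, Onecut1 at -0.91, Nfil3 at 0.45, Hlf at -0.35 and Nr5a2 at -0.30 were called out of 17 expressed. Between quercetin and baseline Hnf4a at 0.19 and Hnf4g at -0.11 were called out of 18. Against baseline 24.9% of all probes were called with control and 17.0% with quercetin.

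Of 22 expressed acute phase genes, 5 were called as lower in control than in baseline mice, where 12.3% of all probes were. Among them were Orm2 at -0.35, Orm1 at -0.31, Fga at -0.20 and Itih3 at -0.20, with a median over the list of -0.20. In quercetin against baseline mice ceruloplasmin (Cp) was called at -0.27, and none was called between the diets by limma (3 at an unadjusted p under 0.05). Of 11 expressed growth hormone genes, Igfals at -0.40 and Igf1 at -0.16 were called between control and baseline. Ghr and Igf1, both at -0.19, were called between quercetin and baseline. The shares of all probes called in either direction were 24.9% and 17.0% in these comparisons. None was called between the diets by limma (3 at an unadjusted p under 0.05).

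Growth hormone sets the sex bias of many liver genes, and lists of such genes were read beside the members. Of 15 expressed genes of male predominance, 6 were called as lower and 1 as higher in control than in baseline mice, with Selenbp2 at -1.14, Susd4 at 0.56, Mup1 at -0.54 and Hsd3b5 at -0.30. In quercetin against baseline mice the counts were again 6 and 1, with Selenbp2 at -1.54, Mup1 at -0.88, Susd4 at 0.62 and Hsd3b5 at -0.55. Between the diets Elovl3 at -1.43 and Cyp2u1 at -0.19 were called. Of the genes of female predominance, 3 of 7 were called as higher and 3 as lower between control and baseline, with Cyp3a41a at 0.61, Cyp2a4 at -0.58, Cyp3a16 at 0.57 and Cyp3a44 at 0.54, and 3 of 8 as higher between quercetin and baseline, those 3 Cyp3a genes. Cyp2a4 at 0.80 and Prlr at 0.30 were higher with quercetin than in the control group. Among all probes, 12.6% were called as higher and 12.3% as lower between control and baseline. The shares were 8.38% and 8.59% between quercetin and baseline, and 3.40% in either direction between the diets.

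Markers of liver cell types were read to see what else moved with the members. Over 6 expressed hepatocyte markers, the mean log2 ratio had a median of 0.23 over baseline, 0.03 over control and 0.10 over quercetin mice, and Cyp2e1 at -0.44, Ass1 at -0.29 and Ttr at -0.25 were called between control and baseline. Between the diets Cyp2e1, higher with quercetin by 0.34, was the 1 hepatocyte marker called. The median difference of the 6 was -0.05 there, from -0.13 to 0.34. Ass1 at -0.40 and Ttr at -0.33 were lower with quercetin than at baseline. The haemoglobin genes Hba-a1 and Hbb-b1 were higher in control than in baseline mice by 0.85 and 0.99. The other expressed erythroid gene differed by -0.19 there and was not called, and the neutrophil gene S100a9 was higher by 0.61. The haemoglobin genes and S100a9 were higher with quercetin than at baseline by 1.14, 1.29 and 0.58, where Alas2 at -0.26 was lower. The bile duct genes Sox9 at 0.55, Krt19 at 0.41 and Krt7 at 0.27 were called as higher in control than in baseline mice, and Sox9 at -0.52 was lower with quercetin. Of the endothelial genes Pecam1 was called, at -0.26 between control and baseline and at 0.23 between the diets. No expressed marker of Kupffer cells (8 genes), stellate cells, lymphocytes, adipocytes or exocrine pancreas was called by limma in any comparison, with 5 Kupffer cell genes at an unadjusted p under 0.05 between quercetin and baseline and 2 between control and baseline, and 1 stellate cell and 1 lymphocyte gene in 1 comparison each. In bulk liver, fewer cells of a type and less RNA per cell cannot be told apart. The 4 exocrine pancreas genes stood at a mean of 5.34 in control replicate 5 and no higher than -3.92 in every other mouse, and without that mouse Serpina6 and Serpina12 differed between the diets by 0.46 and -0.39. The part of these cell types in the members' levels was not tested.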

How the data were processed

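Liver RNA of 36 mice was hybridized to Agilent whole-genome arrays, with the Cy5 intensity from 1 mouse and the Cy3 intensity from a pool of all samples. The authors deposited scanner files quantified with Agilent Feature Extraction 10.5.1.1, per the labels, which hold the median intensity of spot and background in both channels, without normalization. They also deposited processed log2 Cy5 values for 23256 spots, normalized by the authors against Cy3 by a method not given in the sources used here. Every array of these values has a median of 8.96.

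The adaptation lasted 3 weeks in the labels and 2 weeks in the methods, and the methods do not mention the baseline group. Groups and replicate numbers were taken from the sample titles. Nothing states that mice of the same number belong together. The deviations of same-numbered mice had median correlations of -0.03, 0.05 and 0.01 in the 3 comparisons, with 3, 4 and 1 of 12 pairs above 0.1. These values gave no sign of a pairing but, without a test, cannot exclude one, and the mice were treated as unpaired.

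Median intensities were background-corrected by normexp (offset 50), 1639 control spots and the 113 to 217 outlier spots per array were given no weight, log2 ratios were normalized by loess within arrays, and spots of a probe were averaged. A probe was kept when its mean Cy5 and Cy3 signal over the 24 arrays compared exceeded 2 times background. Differences were tested two-sided in limma by lmFit and eBayes, with Benjamini-Hochberg adjustment over the probes kept, each comparison on its own 24 arrays. For a gene with several probes the brightest was used and the other is given beside it. Gene names were taken from the files and from RefSeq accessions. How precise a value is depends on the 12 arrays per group. Each p-value sets a difference between groups against the spread within them, which eBayes draws toward that of all probes kept. With 1 array per mouse, variation between mice and between arrays cannot be told apart. Simulated data with known changes gave back 98% of probes changed by 0.5 and 74% of those changed by 0.3 on the log2 scale, between quercetin and control, over 18219 probes. Each size was given to 50 probes. The noise was normal and independent between probes, without outlier mice, shared array effects or normalization. These shares may therefore be higher than in the real data.

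The members and the 10 gene lists and 10 marker lists were chosen with earlier results of these data known. Named were all members with all probes, every called serpin, in each other list at most 4 called genes per comparison with the largest difference, and the 5 genes most like Serpina7 and Serpina3m. Marker genes and genes of single mice are named beside them. Correlations used 100000 permutations within groups. Tried as alternatives were other background corrections and normalizations, the authors' values, other filters, the methods' t-test with Benjamini-Hochberg adjustment, blocks, array weights and fits without single mice. R 4.3.3, limma 3.58.1, the package data.table (1.17.8), Python 3.11.15 and matplotlib 3.10.9 were used.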

Additional observations from a re-analysis of the deposited data

How the results depend on the processing

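The count of members called between quercetin and control was 2, and it was 1 with median centring, with scale normalization after loess, with the Cy5 channel alone and with the filter of 4 times background, which leaves 8 members in the fit without Serpina12. In the other alternatives it was 2, or 3 with array weights, where Serpina3k was called (-0.28, adjusted p = 0.042, limma). Serpina12 was called in 18 of 18 alternatives that kept it, from -0.80 to -0.34, and Serpina6 in 16 of 19, from 0.22 to 0.51. The difference between the diets turned sign for Serpina1b with the Cy5 channel alone (0.050) and for Serpina3g with array position as a block (-0.012). The replicate block left the count at 2 between the diets and gave 6 and 5 against baseline, where it was 6 and 4 without the block, and it changed no call between the diets. Nothing is read from the counts against baseline, since the members were chosen from that contrast. Against baseline, Serpina7 ranged from 0.99 to 1.34 with control and from 1.25 to 1.54 with quercetin, and Serpina3m from -0.62 to -0.21 and from -0.81 to -0.29, the value of Serpina3m nearest to 0 coming from the Cy5 channel alone in both. Serpina3k ranged from -0.76 to -0.50 and from -1.29 to -0.53, Serpina1b from -0.38 to -0.16 and from -0.76 to -0.22, and Serpina12 from 0.21 to 0.48 and from -0.32 to -0.089. The count of correlated pairs was 3, and it was 5 without quercetin replicate 2 and 6 with the authors' processed values. The cause of these changes was not tested. Median centring also moved the number of probes called between the diets from 626 to 69, scale normalization to 87 and the Cy5 channel alone to 193. Serpina6 ranged from -0.16 to 0.064 and Serpina10 from -0.17 to 0.025 between control and baseline, and Serpina10 from -0.012 to 0.51 and Serpina3n from -0.30 to 0.29 between quercetin and baseline, so their direction depended on the processing. The fits without quercetin replicate 4 or control replicate 5 or 9 were chosen after the data were seen. Dim probes such as that of Serpina12 lie close to the background, which limits how well the size of their difference is known.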
